A study of Mus musculus with 30 samples.

Results

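The muscle miRNAs miR-1, miR-133 and miR-206 were followed in mouse heart after carbon black nanoparticles were instilled into the lung. The 6 members are the array entries named mmu-miR-1a, mmu-miR-1a-1*, mmu-miR-133a, mmu-miR-133a*, mmu-miR-133b and mmu-miR-206, chosen by name out of 1079 mouse miRNAs on the array, and an asterisk marks the passenger strand of a hairpin. All 6 were among the 306 miRNAs bright enough to test, although miR-206 was well above background on only 17 of 29 arrays. The hearts came from female C57BL/6 mice, bought at 5 to 6 weeks of age, that received Printex 90, a commercial carbon black of nanosized particles, at 162 µg by the trachea, or the vehicle alone. The vehicle was saline with cell-free lavage fluid from the lungs of the same strain, so that every group carried the instillation itself. RNA enriched for small RNA was taken from 1 random section through both ventricles of each mouse, which leaves the mixture of cell types in a section uncontrolled, and mice were killed 1, 3 or 28 days after the dose. Of the arrays with a signal, 10 were of day 1 (4 vehicle, 6 Printex 90), 10 of day 3 (6 vehicle, 4 Printex 90) and 9 of day 28 (4 vehicle, 5 Printex 90). A further Printex 90 sample of day 3, replicate 3, had a file without signals and was left out of every fit. The 29 arrays lay on 4 slides, each scanned in a run of its own, so that slide and scan cannot be told apart. 4 groups had arrays on all 4 slides, vehicle on day 28 had none on slide 3, and Printex 90 on day 3 had none on slide 2.

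These miRNAs are made in striated muscle from paired genes. miR-1 and miR-133a come from shared transcripts in heart and skeletal muscle, whereas miR-206 and miR-133b come from another pair that is mainly used in skeletal muscle. miR-1 and miR-206 share a seed, the bases at the 5′ end that pair with a target, and repress overlapping messages, among them ones that hold back differentiation, while miR-133 represses other messages, among them ones that act in proliferation and hypertrophy. Of each hairpin, the guide strand (miR-1a, miR-133a, miR-133b, miR-206) is loaded into the silencing complex and the passenger strand (miR-1a-1*, miR-133a*) is mostly degraded.

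Mature sequences in RefSeq (GRCm38.p6) were matched by name to 3 of the 6 members, and are shown because the groups below rest on which members share a seed or a hairpin pair. Capitals mark the seed, bases 2 to 8, and all lie on the plus strand. miR-206 is the 3p arm at chr1:20679055-20679076, miR-133b the 3p arm at chr1:20682834-20682855 and miR-1a-1* the 5p arm at chr2:180389057-180389079. The 5p arm of miR-206 (miR-206* on the array, at chr1:20679017-20679039) is added because it is the counterpart of miR-1a-1*.
miR-206-3p: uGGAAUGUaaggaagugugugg
miR-133b-3p: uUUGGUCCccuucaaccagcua
miR-1a-1-5p: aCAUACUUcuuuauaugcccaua
miR-206-5p: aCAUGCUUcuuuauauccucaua
The guide strands miR-206 and miR-133b had different seeds. The passenger strands miR-1a-1-5p and miR-206-5p agreed at 20 of 23 bases, and the 3 substitutions from miR-1a-1-5p to miR-206-5p, counted from the 5′ end, were A5G, G17C and C19U, of which the first lies in the seed.

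The hairpins of miR-206 and miR-133b lay on the plus strand of chromosome 1 with 3686 bases between them. They are shown whole, with the mature arms in capitals, since of the 2 guides of this pair miR-133b was well above background on all 29 arrays and miR-206 on 17.
Mir206: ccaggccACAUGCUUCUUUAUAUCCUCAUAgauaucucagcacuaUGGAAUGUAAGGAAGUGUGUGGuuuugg
Mir133b: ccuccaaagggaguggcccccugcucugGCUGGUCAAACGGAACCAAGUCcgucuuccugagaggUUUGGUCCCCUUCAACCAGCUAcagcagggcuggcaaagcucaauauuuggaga
The passenger strands of both, miR-206* and miR-133b*, were well above background on 0 of 29 arrays. miR-133a and miR-133b are known to differ only at the 3′ end and share a seed, and how far the probes tell them apart was not tested here.

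Depth on these arrays is the signal over background, and their number limits the precision. The share of spots well above background, called brightness here, ran from 18.4% to 27.5% per array, and no spot was saturated (0 spots on every array). Values are log2 signals, scaled so that the 75th percentile of 418 probes seen on every array was the same on each, with a floor at 4.04. Of cell type markers, the cardiomyocyte miRNAs miR-208a-3p and miR-499 were well above background on all 29 arrays, as were all members of the smooth muscle (2), endothelial (2), red cell (2), leukocyte (4) and fibroblast (3) lists. Of 6 markers of airway epithelium, 1 was detected (miR-34b-3p, on 28 arrays), the 2 brain markers were on 0, and the liver miRNA miR-122 was on 26. In such tissue, fewer cells of a type and less RNA per cell cannot be told apart.

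miR-1a, the most studied muscle miRNA, varied little across the 29 hearts after this scaling. In vehicle mice it stood at 16.07, 15.75, 16.01 and 16.04 on day 1, at a lowest of 15.74, a median of 15.95 and a highest of 16.04 on day 3, and at 16.06, 16.08, 15.89 and 15.98 on day 28. In Printex 90 mice it stood between 15.84 and 16.08 on day 1 with a median of 16.02, at 15.87, 15.96, 16.08 and 16.11 on day 3, and at 16.01, 15.90, 15.95, 15.90 and 16.11 on day 28. The groups overlapped on every day, and the whole range over 29 arrays was 1.30-fold. The SD between hearts of a group, which also holds the spread of section, array and slide, was 0.10 when pooled over groups. This SD was the 22nd smallest of 306 against a median of 0.27. That narrow spread depends on the scaling: the SE of its day 1 exposure difference was 0.07 here and 0.21 both with the percentile taken over all probes and with no scaling.

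miR-133a and miR-133b, guides with a common seed from different chromosomes, were also bright on every array. The group means of miR-133a lay between 13.70 ± 0.24 (SD, n = 6, Printex 90 on day 1) and 13.92 ± 0.11 (n = 4, vehicle on day 28). Those of miR-133b lay between 14.83 ± 0.21 and 15.03 ± 0.09 in the same 2 groups. On 1 array, Printex 90 on day 1, replicate 5, both were lowest, with miR-133a at 13.25 and miR-133b at 14.47, where every other array had at least 13.55 and 14.72. That array was among the dimmest, with 19.2% of its spots well above background, and on it miR-1a (16.04) and miR-133a* (10.42) were not low.

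The passenger strand miR-133a* had a spread like that of miR-1a. Its group means lay between 10.21 ± 0.12 (SD, n = 5, Printex 90 on day 28) and 10.31 ± 0.05 (n = 4, vehicle on day 28), its pooled SD of 0.10 was the 20th smallest of 306, and its whole range was 1.30-fold. A probe's brightness depends on the probe, so no order of amounts between miRNAs can be read from these levels. The 2 probes of 1 miRNA differed by 2.61 ± 0.09 (SD, n = 29) for miR-133a on the log2 scale, by 1.87 ± 0.08 for miR-133b, by 1.42 ± 0.08 for miR-1a and by 1.15 ± 0.05 for miR-133a*. The gaps were steady from array to array, and within groups the paired probes correlated over the 29 arrays with r of 0.75 (miR-1a), 0.84 (miR-133a), 0.85 (miR-133b) and 0.89 (miR-133a*).

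**Figure D1:**
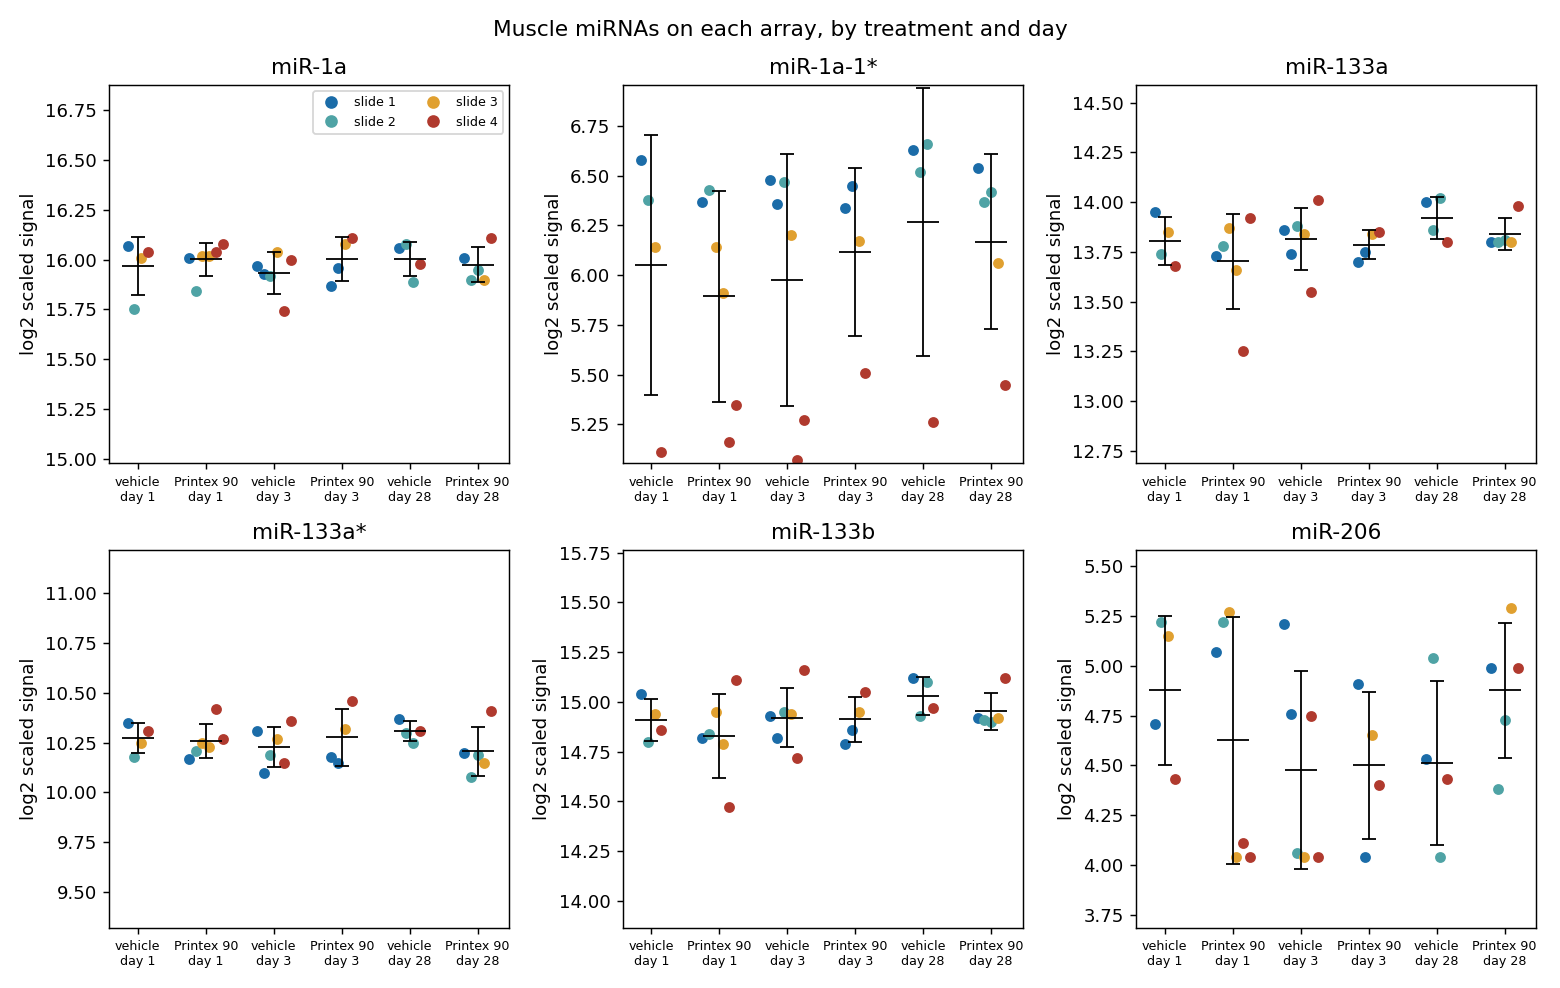
Log2 scaled signal of each member (vertical axes, all of the same length) in each treatment and day, with a point per array coloured by slide and the group mean with its SD in black. miR-1a and miR-133a* spread by 1.30-fold in all, miR-1a-1* falls apart by slide, and miR-206 reaches down to the floor at 4.04.

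The exposure comparison asked whether Printex 90 in the lung moved these miRNAs in the heart. None of the 6 members passed the threshold on day 1, day 3 or day 28, or in the mean of the 3 days (limma, Benjamini-Hochberg adjusted over 306 miRNAs, threshold 0.05). The share of all 306 miRNAs called was 0% on day 1, 0% on day 3, 0% on day 28 and 0% in the mean of days, so that the members do not differ from the array in this. At an unadjusted p under 0.05, 0 of 6 members passed in each of the 4, against 2, 1, 1 and 0 of the 306. Vehicle and Printex 90 values overlapped in 18 of 18 member and day pairs, and two-sided exact permutation tests of these pairs gave p between 0.167 and 0.952, where the smallest possible was 0.00476 on days 1 and 3 and 0.00794 on day 28.

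For miR-1a the exposure difference (Printex 90 minus vehicle, log2) was 0.03 ± 0.07 (SE) on day 1, 0.07 ± 0.07 on day 3 and -0.03 ± 0.08 on day 28. In the mean of days it was 0.02 ± 0.04, with a 95% interval from -0.07 to 0.11 that holds changes of up to 1.08-fold (adjusted p = 0.994, limma). miR-1a and miR-133a* were the members with the narrowest bound. For miR-133a* the mean difference was -0.02 ± 0.04, also at most 1.08-fold, and on single days it was -0.01 ± 0.07, 0.05 ± 0.07 and -0.10 ± 0.08. These bounds depend on the scaling. With the percentile over all probes, and also with no scaling, the SE of the mean of days was 0.12 for both miR-1a and miR-133a*. On day 28 miR-133a* stood at 10.37, 10.30, 10.25 and 10.31 in vehicle hearts and at 10.20, 10.08, 10.19, 10.15 and 10.41 in Printex 90 hearts. There 4 of 5 Printex 90 values lay below all vehicle values and the other above them, and the exact permutation p was 0.167.

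miR-133a had a difference of -0.10 ± 0.10 on day 1, -0.03 ± 0.10 on day 3, -0.08 ± 0.10 on day 28 and -0.07 ± 0.06 in the mean of days (interval -0.19 to 0.05, at most 1.14-fold, adjusted p = 0.994, limma). On day 1 its values were 13.95, 13.74, 13.85 and 13.68 in vehicle hearts, and in the 6 Printex 90 hearts the lowest was 13.25, the median 13.76 and the highest 13.92. The low array described above decided this difference, which was -0.01 ± 0.08 without it, and the mean of days was then -0.04 ± 0.05. Without slide 4, a choice made after the data were seen, the mean of days was -0.10 ± 0.04 (adjusted p = 0.997, limma). On day 28 miR-133a stood at 14.00, 13.86, 14.02 and 13.80 in vehicle hearts and at 13.80, 13.80, 13.81, 13.80 and 13.98 in Printex 90 hearts. Here 4 of 5 exposed values fell within 0.01 of each other at the lower edge of the vehicle range, and the other was on slide 4. The lowest vehicle value, 13.80, was on slide 4 too. Within slide 4, with 1 array of each treatment, the difference was 0.18, and on slides 1 and 2 it was -0.20 and -0.13. On slides 4, 1 and 2 it was 0.15, -0.20 and -0.11 for miR-133b. For miR-133a* it was 0.10, -0.16 and -0.14. Without slide 4, left out after the data were seen, the day 28 difference was -0.16 ± 0.07 for miR-133a, -0.14 ± 0.07 for miR-133b and -0.15 ± 0.06 for miR-133a* (each adjusted p = 0.85, limma).

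miR-133b followed the same course, with differences of -0.08 ± 0.10, -0.01 ± 0.10 and -0.08 ± 0.10 on days 1, 3 and 28 and a mean of -0.06 ± 0.06 (at most 1.12-fold). On day 28 it stood at 15.12, 14.93, 15.10 and 14.97 in vehicle hearts and at 14.92, 14.91, 14.90, 14.92 and 15.12 in Printex 90 hearts. Without the low array its day 1 difference was -0.01 ± 0.08.

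As a list, the members had median exposure differences of -0.09, 0.04 and -0.08 in order of day, and of -0.03 in the mean of days. The medians over all 306 miRNAs were -0.07, 0.03, 0.01 and 0. The members above 0 numbered 1 of 6 on day 1, 4 on day 3, 1 on day 28 and 2 in the mean. Between days, the exposure difference changed for 0 of 6 members in each of the 3 interaction contrasts (day 3 minus day 1, day 28 minus day 1, day 28 minus day 3), where 0%, 0% and 0% of all miRNAs were called and the smallest adjusted p of a member was 0.866, 0.497 and 0.982 (limma).

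**Figure D2:**
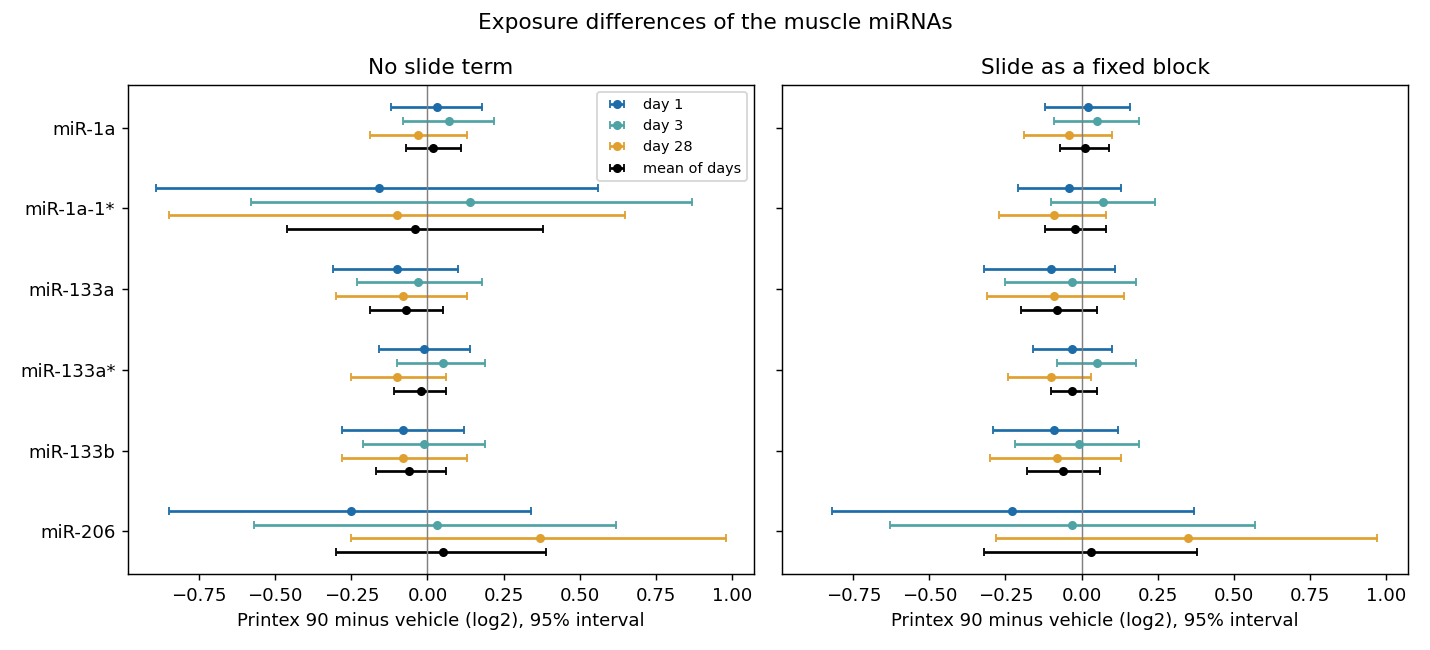
Printex 90 minus vehicle on the log2 scale (horizontal axis) for each member on each day and in the mean of days, as points with 95% intervals from limma, without a slide term on the left and with slide as a fixed block on the right. Every interval crosses 0 on both sides, and those of miR-1a-1* narrow with the slide term, from an SE of 0.21 to 0.05 in the mean of days.

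Across days, no member passed the threshold within either treatment. In vehicle hearts 0 of 6 members were called between day 3 and day 1, where 0% of all 306 were, 0 of 6 between day 28 and day 1, where 1.96% were, and 0 of 6 between day 28 and day 3, where 0.654% were. In Printex 90 hearts 0 of 6 were called between day 3 and day 1 (0% of all), day 28 and day 1 (1.31%) and day 28 and day 3 (0.327%). A count of 0 of 6 lies near those background shares. miR-1a differed by 0.03 ± 0.08 (SE) between day 28 and day 1 in vehicle hearts and by -0.03 ± 0.07 in Printex 90 hearts. miR-133a differed by 0.11 ± 0.11 and 0.14 ± 0.09 in the same comparisons, and miR-133b by 0.12 ± 0.10 and 0.12 ± 0.09. For miR-133a and miR-133b, 5 of 5 Printex 90 hearts of day 28 lay above the mean of day 1, yet the groups overlapped, as they did in 36 of 36 member and day comparisons. The dim members had wide intervals. miR-206 differed by -0.40 ± 0.29 between day 3 and day 1 and by -0.37 ± 0.32 between day 28 and day 1 in vehicle hearts. Its intervals reach 1.99-fold and 2.02-fold, but values at the floor compress them, so they set no bound on a fold change. miR-206 was bright enough to test only through vehicle on day 1 and Printex 90 on day 28, so comparisons with these groups are not free of that choice. miR-1a-1* differed by 0.29 ± 0.35 between day 28 and day 3 in vehicle hearts, with an interval that reaches 2.03-fold. The comparisons within a treatment share groups with each other and with the exposure comparisons, so their signs are not independent. Over all 54 exact permutation tests of members the smallest p was 0.127, for miR-206 between day 28 and day 3 in Printex 90 hearts, which was 0.907 after Benjamini-Hochberg adjustment over the 54.

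Of the other muscle miRNAs on a list of 13 names, 12 were on the array and 5 were tested. These were both strands of miR-208a, which is carried by the gene of the fast adult heart myosin, miR-208b and miR-499, carried by genes of slow myosins, and miR-486*, from a hairpin of muscle and red cells. In the exposure comparisons 0 of the 5 were called in either direction. Between days 1 of 5 was called, lower, and that was miR-208b on day 28: by -1.27 ± 0.17 (SE) against day 1 in vehicle hearts (adjusted p = 3.08e-05, limma) and by -1.16 against day 1 in Printex 90 hearts (adjusted p = 9.94e-06, limma). Against day 3 its day 28 difference was -1.07 ± 0.16 in vehicle hearts (adjusted p = 0.000128, limma). In Printex 90 hearts it was -0.97 ± 0.16 (adjusted p = 0.00101, limma). miR-208b was well above background on 18 of 29 arrays, with a mean of 4.9 over all arrays where the floor was 4.04. Which groups made it bright enough to test was not examined, so these comparisons may not be free of that choice. The comparisons of day 28 with day 1 called 1.96% of all 306 miRNAs in vehicle and 1.31% in Printex 90 hearts. Those of day 28 with day 3 called 0.654% and 0.327%. The smallest adjusted p of a member against day 1 was 0.755 in vehicle and 0.643 in Printex 90 hearts (limma). Against day 3 it was 0.892 and 0.687 (limma). The remaining entries from the members' own hairpins and their paralogue, miR-1a-2*, miR-1b-3p, miR-1b-5p, miR-133b* and miR-206*, were not bright enough to test, and 1 of these 5 was well above background on any array (miR-1a-2*, on 1).

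miR-1a-1*, the passenger strand of miR-1a, was dim and separated by slide, not by treatment. On the 8 arrays of slide 1 it ran from 6.34 to 6.63 and on slide 2 from 6.37 to 6.66. On slide 3 it ran from 5.91 to 6.20, and on the 8 arrays of slide 4 from 5.07 to 5.51. Slides 3 and 4 overlapped neither each other nor slides 1 and 2, while vehicle and Printex 90 hearts lay among each other on each slide.

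In a limma F test of slide beside group, miR-1a-1* was the 1 member of 6 past the threshold (F = 147, adjusted p = 2.02e-12), where 17% of all 306 miRNAs were called (52 of 306). The other members had adjusted p between 0.155 (miR-133a*) and 0.946 (miR-133b). The mean of slide 4 minus that of the other slides was -1.07 for miR-1a-1*, number 3 from the lowest of 306, where the median miRNA was at 0.01. Lower still were miR-126-5p at -1.36 and miR-212-3p at -1.10, and next came miR-5112 at -0.72 and miR-30c at -0.63. For the other members it was small, at 0.04 (miR-1a), 0.11 (miR-133a*), 0.02 (miR-133b) and -0.07 (miR-133a), except for miR-206 at -0.33.

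Of these partners, the sequences of miR-212-3p and miR-30c are shown beside miR-1a-1-5p above, since these miRNAs share the slide pattern. Those of miR-126-5p and miR-5112 are not shown. The seed is again in capitals. miR-212-3p lies at chr11:75173443-75173464 on the plus strand and miR-30c-5p at chr4:120769584-120769606 on the minus strand.
miR-212-3p: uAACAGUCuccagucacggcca
miR-30c-5p: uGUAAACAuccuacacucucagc
The 3 seeds differed, and G and C made up 7 of 23 bases in miR-1a-1-5p, 12 of 22 in miR-212-3p and 10 of 23 in miR-30c-5p. miR-1a-1* was read by 3 probes, of which 2 were well above background on 0 arrays. Its values rest on the remaining probe, which was detected on 28 arrays, with signals before scaling between 25 and 119. The slide pattern held under 6 other ways of scaling, correcting or summarising the scanner signals. Of these, taking the brightest probe could not change it, since only the remaining probe was kept. Differences of slide 4, beside group, ran from -1.41 (no scaling) to -0.28 (normexp background correction, adjusted p = 0.0164, limma). The pattern was lost in the authors' deposited log2 table, where the difference was -0.07 and the adjusted p of slide 0.24 (limma). In that table miR-133a* was the member past the threshold instead, with slide 4 higher by 0.27 (adjusted p = 0.0286, limma). The slide test there called 23.5% of all 306 miRNAs (72 of 306), and 1 of 6 members lies near that share. What sets that table apart was not tested.

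Groups were spread over slides, and the values of miR-1a-1* lay far apart within groups whose means lay closer together. Group means lay between 5.89 ± 0.53 (SD, n = 6, Printex 90 on day 1) and 6.27 ± 0.67 (n = 4, vehicle on day 28). The exposure differences were -0.16 ± 0.35 (SE), 0.14 ± 0.35 and -0.10 ± 0.37 for the 3 days in turn. With slide as a fixed block they were -0.04 ± 0.08, 0.07 ± 0.08 and -0.09 ± 0.09, and the mean of days was -0.02 ± 0.05, bounded at 1.09-fold instead of 1.38-fold (adjusted p = 0.998 with the block and 0.994 without, limma). Without slide 4 the differences were -0.16 ± 0.14, -0.06 ± 0.14 and -0.25 ± 0.14. Within slides that held both treatments of a day, they ran from -0.21 (slide 1) to 0.14 (slide 4) on day 1, from -0.04 (slide 3) to 0.35 (slide 4) on day 3 and from -0.19 (slide 2) to 0.18 (slide 4) on day 28. With the slide term the pooled SD between hearts fell from 0.57 to 0.12, the 68th smallest of 306.

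**Figure D3:**
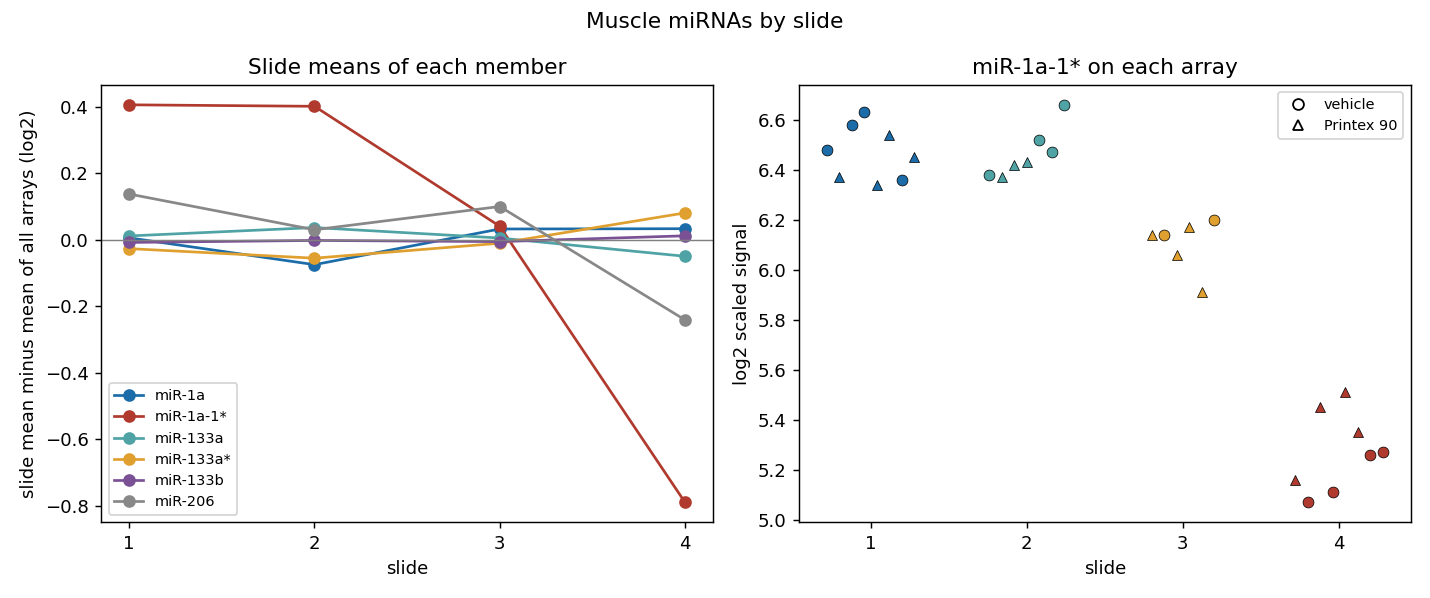
Left, the mean of each member on each slide minus its mean over all arrays (log2). Right, miR-1a-1* on each array by slide, with circles for vehicle and triangles for Printex 90. The slide means of miR-206 run from 4.40 to 4.78, those of miR-1a and the miR-133 members lie closer together, and miR-1a-1* on slide 4 lies between 5.07 and 5.51, below every array of slides 1 to 3.

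miR-206, the skeletal muscle member, stayed close to the background in the heart. At least 1 of its 2 probes was well above background on 4 of 4 vehicle and 3 of 6 Printex 90 arrays on day 1, on 2 of 6 and 2 of 4 on day 3, and on 2 of 4 and 4 of 5 on day 28. It passed the filter on dim probes through no group other than vehicle on day 1 and Printex 90 on day 28, those with its highest means (4.88 each), so that comparisons with these groups are not free of that choice. In vehicle hearts the values were 4.71, 5.22, 5.15 and 4.43 on day 1 and 4.53, 5.04, 4.04 and 4.43 on day 28, and on day 3 the lowest was 4.04, the median 4.41 and the highest 5.21. In Printex 90 hearts the lowest on day 1 was 4.04, the median 4.59 and the highest 5.27. On day 3 the Printex 90 values were 4.91, 4.04, 4.65 and 4.40, and on day 28 they were 4.99, 4.38, 4.73, 5.29 and 4.99. Every group but vehicle on day 1 and Printex 90 on day 28 had an array at the floor, and all groups overlapped.

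The exposure differences of miR-206 were -0.25 ± 0.29 (SE) on day 1, 0.03 ± 0.29 on day 3 and 0.37 ± 0.30 on day 28, with exact permutation p of 0.467, 0.952 and 0.206. The mean of days was 0.05 ± 0.17. Values at the floor compress these differences, so they set no bound on a fold change. With the software's total gene signal the differences were -1.11 ± 0.75, 0.37 ± 0.75 and 0.83 ± 0.78 (adjusted p of 0.751, 0.994 and 0.989, limma). miR-206 moved with the brightness of the array: across 29 arrays, after group means were removed, Pearson's r was 0.83 and Spearman's rho 0.87 (0.85 for r without the 2 arrays farthest from the median brightness), number 5 from the highest of 306 miRNAs against a median of 0.17. The other members had r between -0.35 (miR-133a*) and 0.35 (miR-1a-1*). These points share array, scaling and floor. With brightness as a covariate the differences were 0.07 ± 0.17, -0.09 ± 0.17 and 0.32 ± 0.17 (adjusted p of 0.998, 0.996 and 0.718, limma), so that the sign turned for the first 2 times and remained on day 28. Brightness had a median of 25.6% in vehicle and 24.0% in Printex 90 arrays on day 1 and of 24.2% and 24.7% on day 28.

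**Figure D4:**
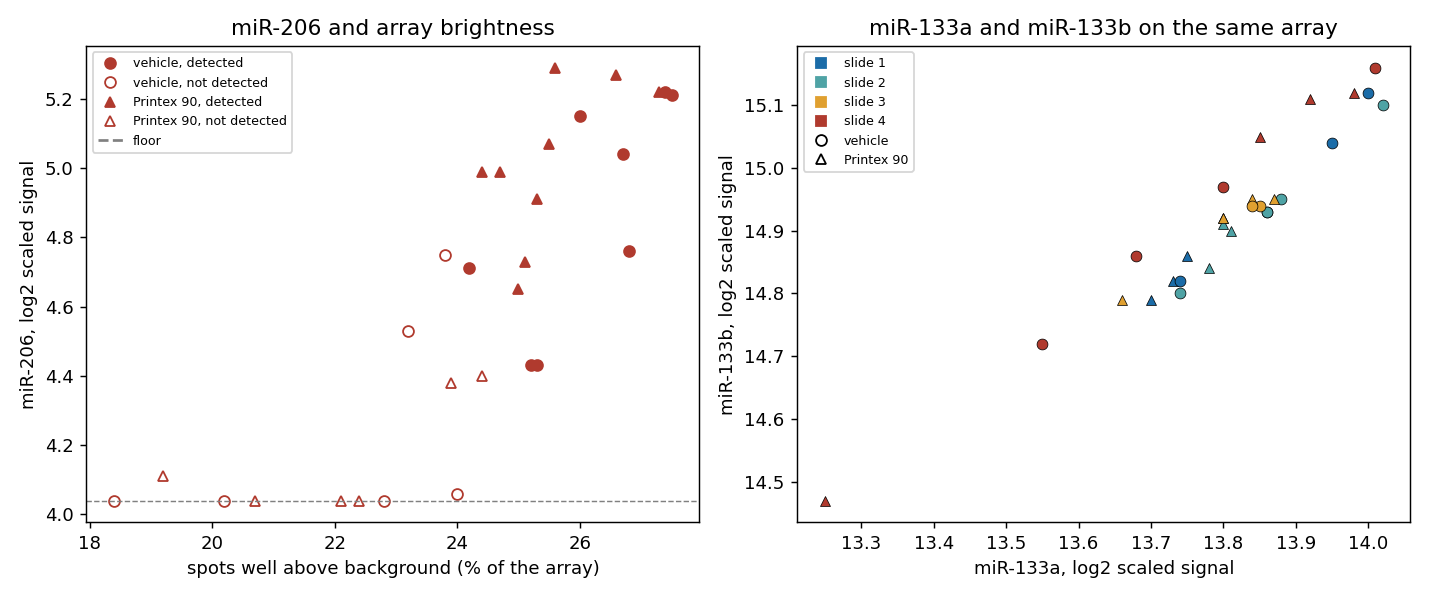
Left, log2 signal of miR-206 on each array against the share of spots well above background, filled where a probe was detected, with the floor at 4.04 dashed. Right, miR-133b against miR-133a on the same array, coloured by slide. miR-206 is at or near the floor on all arrays dimmer than 23%, and miR-133b keeps a nearly fixed distance of 1.12 ± 0.04 (SD, n = 29) from miR-133a.

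Differences between members on the same array need no scaling. That between miR-133b and miR-133a was 1.12 ± 0.04 (SD, n = 29) on the log2 scale with extremes of 1.06 and 1.21, and its group means ran from 1.10 to 1.13. Between miR-1a and miR-133a* it was 5.72 ± 0.08 with extremes of 5.57 and 5.84, and group means ran from 5.70 to 5.77. Group means thus lay within 0.03 of each other for the first pair and within 0.07 for the second. Between miR-133a and its own passenger strand miR-133a* the spread was wider, at 3.55 ± 0.17, and between miR-1a and miR-133a it was 2.17 ± 0.16. The lowest value of the former, 2.83, and the highest of the latter, 2.78, came from the same array. This was the low array described above, Printex 90 on day 1, replicate 5, with 19.2% of its spots well above background. The means of the distances carry the probes' own brightness, and only their constancy can be read. For miR-133a and miR-133b, whether the probes of both read the same RNA was not tested.

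The same pairs stood out in how the members varied among hearts of 1 group. After group means were removed, r over the 29 arrays was 0.95 between miR-133a and miR-133b (0.93 without the 2 arrays farthest from the median) and 0.70 between miR-1a and miR-133a* (0.71). miR-133a and miR-133a*, strands of the same hairpins, had only 0.17, which was 0.52 without the 2 farthest arrays. miR-1a-1* ran against its own guide miR-1a at -0.18 and against miR-133a* at -0.47. These values are descriptions over arrays that share scaling and slides. How far the probes tell miR-133a from miR-133b was not tested, so their r need not be that of separate RNAs.

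Removing slide means as well as group means, a step added after the data were seen, changed the place of miR-1a-1*. Its r became 0.59 with miR-1a, 0.71 with miR-133a, 0.67 with miR-133a* and 0.72 with miR-133b, against a median of 0 over all other miRNAs. Of 305 other miRNAs, miR-133b was then number 4, miR-133a number 5, miR-133a* number 7 and miR-1a number 17 in likeness to miR-1a-1*. The pairs that did not involve miR-1a-1* moved less, with 0.99 between miR-133a and miR-133b and 0.70 between miR-1a and miR-133a*. miR-206 had r between -0.24 (miR-1a) and 0.31 (miR-1a-1*) with the other 5 members after group means were removed, and between -0.27 and -0.01 after slide means were removed too.

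**Figure D5:**
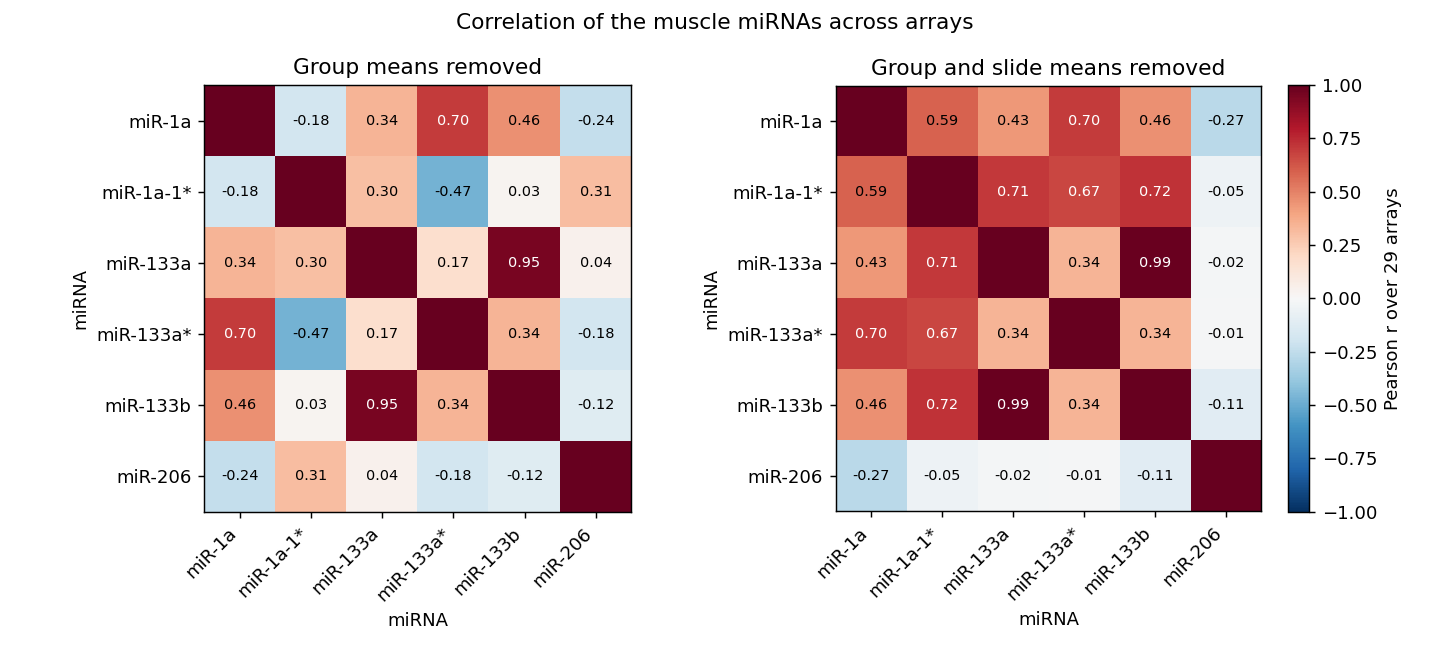
Pearson's r between members over 29 arrays, with group means removed on the left and group and slide means removed on the right; red is positive and blue negative. The row of miR-1a-1* turns from mixed signs to values between 0.59 and 0.72 with 4 members, and that of miR-206 stays near or below 0 on the right.

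Outside the members, the 3 miRNAs most like each one across arrays were named by their r after group means were removed. For miR-1a these were miR-34a (0.75), miR-378b (0.75) and miR-208a-5p (0.68), against a median of -0.11 over all others. For miR-133a they were miR-219-5p (0.79), miR-132 (0.79) and miR-194 (0.75), and for miR-133b miR-219-5p (0.86), miR-378* (0.79) and miR-132 (0.79). For miR-133a* they were miR-378b (0.75), miR-30a* (0.71) and miR-30c-2* (0.69). These kept r of at least 0.49 when slide means were removed too.

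For miR-1a-1* the most alike were its slide partners miR-126-5p (0.97), miR-212-3p (0.97) and miR-30c (0.94), and with slide means removed these fell to 0.27, 0.45 and 0.22. The 3 most alike were then miR-345-5p (0.80), the heart myosin miRNA miR-208a-3p (0.77) and miR-34a (0.72). For miR-206 they were miR-466c-5p (0.97), miR-669f-5p (0.96) and miR-467c (0.96), with or without slide means at 0.96 or above, against a median of 0.17. Among the muscle list, with slide means removed, miR-499 had r of 0.78 with miR-133a and 0.76 with miR-133b, and miR-208a-3p had r between 0.55 and 0.77 with the 5 members other than miR-206. miR-499 had lower r with miR-1a-1* (0.64), miR-1a (0.42) and miR-133a* (0.28). For miR-208a-5p the r lay between 0.36 (miR-133a) and 0.76 (miR-1a) with the 5 members other than miR-206. miR-208b had r between -0.09 (miR-1a) and 0.30 (miR-133a) with those 5 members, and miR-486* between 0.17 (miR-133a*) and 0.61 (miR-133a and miR-133b). With miR-206 the r of miR-208a-3p was 0.12 and that of miR-499 0.29, where the median over all miRNAs was 0.33. That of miR-208a-5p with miR-206 was -0.42, that of miR-208b 0.32 and that of miR-486* -0.10. With only group means removed, miR-208a-3p had lower r, between 0.13 (miR-133a*) and 0.60 (miR-1a-1*), with the 5 members other than miR-206.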

How the data were processed

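MiRNA levels were measured on Agilent 1-colour arrays in 30 mouse heart samples. The authors read their scans with the program Feature Extraction (version 10.7.3.1), per the file headers, and the deposited signal intensity is linear, background-subtracted and per spot. A deposited table of log2 values per miRNA, whose scaling is not given in the sources used here, served as an alternative (column medians 5.78 to 5.82). The authors' detection flags per spot were used as deposited.

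Processed signal was averaged per probe over spots that were not outliers (45440 spots, 2889 probes). Detection of a probe asked that a share of 0.5 or more of its spots be flagged well above background. Each array was divided by its 75th percentile over the 418 probes that every array detected; signals were raised to a floor (16.5, the lowest detected signal) and taken to log2. Probes detected on 4 or more arrays of some group were averaged per miRNA, giving 306 miRNAs from 621 probes.

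The 6 groups were fitted together with limma 3.58.1 (R 4.3.3), with 13 contrasts adjusted by Benjamini and Hochberg over 306 miRNAs; the F test of slide used a fit with slide added. 29 arrays take the place of 30, since 1 file held no signal. Exact permutation tests were run per member. Each mouse gave its own RNA, from 1 section on 1 array, so p-values measure the spread between mice together with that of section and array. The main fit had no slide term, so differences between slides add to that spread. The scripts were tested on simulated data. Alternatives covered scaling, background (normexp on median pixel signals, offset 50), probe summary, filters, the deposited table, slide, brightness and left-out arrays. All 6 members, the muscle list and, per member, the 3 most alike miRNAs are named. The members and lists were chosen with earlier results of these data known. RefSeq sequences were matched by arm name.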

Additional observations from a re-analysis of the deposited data

Results flagged for a closer look

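In 4 of 36 member and group sets, 1 heart lay far from the rest of its group, more than a gap test at the 95% level allows (chance gives about 1 in 20). For miR-1a it was replicate 2 of Printex 90 on day 1, at 15.84 where the next value was 16.01. For miR-1a-1* it was replicate 4 of vehicle on day 28, at 5.26 where the next was 6.52, the only array of its group on slide 4, the slide on which all values of miR-1a-1* lay between 5.07 and 5.51. Replicate 5 of Printex 90 on day 28, also on slide 4, was high for miR-133a at 13.98, next 13.81, and for miR-133b at 15.12, next 14.92, and these guides went together on all arrays. What set these hearts apart was not tested.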

How the results depend on the processing

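No member was called in any of 3419 recomputed values over the 13 comparisons (0 of 3419). These values include differences within single slides, which had no p and could not be called. They also include fits with 1 of the 29 arrays left out, where an array outside a comparison has little weight on its difference. The values overlap and are not separate tests. Of the 3419, 280 changed sign and 108 moved by more than the spread between hearts. For exposure these were 101 and 31 of 1106. Over all miRNAs the exposure and interaction counts, and those of day 3 against day 1, were 0 under every alternative. Scaling shifted the median of all exposure differences on day 1 from -0.07 to 0.11 with all probes in the percentile and to -0.24 without scaling.

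The counts over all miRNAs that changed were those of day 28. For vehicle day 28 minus day 1 (6 in the report), they were 1 with the 75th percentile over all probes, 2 with quantile normalization, 0 with no scaling, 3 with normexp background and 2 in the series value table, and 5 to 7 under the other settings apart from single arrays left out. For vehicle day 28 minus day 3 (2), they were 1 with the 75th percentile over all probes, 0 with quantile normalization, no scaling or normexp background, 4 with total gene signal, 1 with the brightest probe, 1 in the series value table, 5 with no filter, 4 with slide as a fixed or as a random block and 4 without slide 4. For Printex 90 day 28 minus day 1 (4), they were 1 with the 75th percentile over all probes, 1 with quantile normalization, 0 with no scaling or normexp background, 2 with the brightest probe, 1 in the series value table, 2 without slide 4 and 2 without dim arrays (under 21% of spots well above background), and 3 to 6 under the other settings apart from single arrays left out (6 with either slide block). For Printex 90 day 28 minus day 3 (1), they were 0 with quantile normalization, no scaling, normexp background or detection on every array, and 2 with no filter, with slide as a fixed block and without dim arrays. Leaving out 1 array at a time gave 3 to 8, 1 to 5, 1 to 4 and 1 to 2 in the same order. The cause was not tested.

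Dropping slide 4 or dim arrays, fitting miR-206 on the arrays that detected it, redoing the slide test and removing slide means from the correlations were chosen after the data were seen. On the arrays that detected miR-206 its exposure differences were 0.31, -0.20 and 0.27 by day. Signal over background limits miR-206 and miR-1a-1*, and no paired analysis was possible because the labels give no number that pairs mice across groups.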

Other observations

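The Printex 90 heart of day 3 whose scanner file held no signal, replicate 3, has values in the authors' deposited log2 table. There miR-1a stood at 15.58, the lowest of 30 samples, where the other 29 ran from 15.68 to 16.30. The other members of that heart lay inside the range of the other samples: miR-133a at 13.84 (13.34 to 14.11), miR-133b at 14.94 (14.53 to 15.12), miR-133a* at 10.27 (9.98 to 10.83), miR-1a-1* at 5.88 (5.83 to 6.08) and miR-206 at 6.40 (5.98 to 6.48). Over the other 29 arrays the r between that table and the scaled scanner values ran from 0.48 (miR-1a) to 0.65 (miR-133a*) for 5 members and was 0.96 for miR-206.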
